A study of Mus musculus with 10 samples.

Results

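Cholesterol synthesis and its control by the transcription factor SREBP2 were followed in mouse liver through 27 genes, all 27 of which were found on the array and passed the filter on dim probes, among 18921 genes measured. The members were chosen by name. They comprise 4 regulators, 19 enzymes of the route from acetyl-CoA to cholesterol and its isoprenoid side products, and 4 other genes linked to SREBP control or sterol handling. The livers came from 10 mice, 5 wild type at the glucagon receptor gene Gcgr (WT: 3 males, livers WT 1, WT 2 and WT 5, and 2 females, WT 3 and WT 4) and 5 lacking it (KO: 2 males, KO 1 and KO 5, and 3 females, KO 2, KO 3 and KO 4). The labels name no treatment and give no age, strain, feeding state or hour of collection for any group. Of the mice they give the receptor genotype and the sex. The question the design poses is how liver gene expression differs when the receptor for glucagon, the fasting hormone, is missing.

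Liver cells make cholesterol from acetyl-CoA. The early steps build mevalonate and convert it to isoprenoid units, which are joined into farnesyl pyrophosphate, then squalene, which is closed into lanosterol and trimmed to cholesterol. SREBP2 (gene Srebf2) is held in the endoplasmic reticulum with its escort SCAP. When sterols are plentiful, INSIG1 or INSIG2 retains SCAP there, and when sterols fall SCAP carries SREBP2 to the Golgi, where the S1P and S2P proteases release the part that enters the nucleus. That part binds sterol regulatory elements in the promoters of most enzymes of the route, often beside sites for NF-Y, which binds CCAAT boxes, and Sp1, which binds GC boxes. The liver is a main site of this synthesis, and the pathway is set by feeding, insulin and the hour of day as well as by sterols.

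Every value is a log2 ratio of a liver's RNA (Cy5) over a pooled mouse reference RNA (Cy3) on an Agilent array, and a difference between groups is a difference of such ratios. A ratio compares a gene between livers and not with another gene. A gene was taken to have passed where limma's adjusted p was under 0.05 over all 18921 genes. Gcgr matched the label in every liver, with ratios of 7.74 to 8.14 in WT and 0.28 to 0.36 in KO. The hepatocyte markers were well above background in all 10 livers, and 1 of 6, Ass1, fell in KO (-1.20, SE 0.139, limma adjusted p = 0.00063), against 3.08% of all genes. In bulk liver, fewer cells of a type and less RNA per cell cannot be told apart. The arrays lay on 4 slides. Slide 1 held WT 1, WT 2, KO 1 and KO 2, slide 2 held KO 3 and KO 4, slide 3 held WT 3, WT 4 and KO 5, and slide 4 held WT 5. The female WT livers therefore shared no slide with the female KO livers. Arrays of slides 1 and 2 were brighter, with a median net Cy5 of 112 to 134, than those of slides 3 and 4, at 58.7 to 78.9.

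Promoter sequences were available from RefSeq (build GRCm38.p6, 250 bases before to 50 after each gene start) for 23 of the 27 genes. The core sterol regulatory element TCACNCCAC, searched on both strands, stood in the window of 1 of the 23, Hmgcs1, against 1.44% of 27025 genes with a window and 1.24% of 32851 windows. No match says only that these letters are not in this window. Hmgcs1 is shown because it holds the element, in capitals, 137 bases before the gene start (chr13:119690184-119690313, plus strand):
Hmgcs1: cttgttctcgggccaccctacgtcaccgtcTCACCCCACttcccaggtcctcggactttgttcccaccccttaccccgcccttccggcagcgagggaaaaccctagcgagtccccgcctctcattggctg

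The boxes of the companion factors were frequent in these windows. A CCAAT box (CCAAT on either strand) was present for 21 of the 23 genes (91.3%) against 41.1% of all genes with a window, and a GC box (GGGCGG on either strand) for 21 of the 23 (91.3%) against 38.2%. Both boxes were present for 19 of the 23 (82.6%) against 15.8%. These are matches of short letters and not measured binding sites. Sc4mol and Mvk are shown because they had the largest falls in KO males, as the 130 bases before the gene start, with CCAAT and GC boxes of either strand in capitals. The Sc4mol stretch (chr8:64733579-64733708, minus strand) held 2 CCAAT and 2 GC boxes, and that of Mvk (chr5:114444139-114444268, plus strand) held 4 CCAAT boxes:
Sc4mol: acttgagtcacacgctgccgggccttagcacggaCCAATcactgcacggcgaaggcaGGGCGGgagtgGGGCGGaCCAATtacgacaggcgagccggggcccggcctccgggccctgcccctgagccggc
Mvk: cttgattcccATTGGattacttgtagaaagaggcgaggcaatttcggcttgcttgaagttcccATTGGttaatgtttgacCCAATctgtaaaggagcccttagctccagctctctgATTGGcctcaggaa

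The pattern these genes shared was a low level in the male KO livers. In both KO 1 and KO 5 a typical member lay below its level in every other liver: 17 of 27 genes had their 2 lowest values there, against 4.58% of 18854 genes with a value in every liver. Averaged over the 27 genes, the deviation from each gene's mean over the 10 livers was -0.31 in KO 1 and -0.61 in KO 5. It was 0.14, 0.12 and 0.28 in the female KO livers KO 2, KO 3 and KO 4, and -0.02 to 0.22 in the 5 WT livers. KO 5 was the lowest liver for 20 genes, and KO 4 the highest for 11. The median deviation over all genes stayed between -0.02 and 0.01 in all 10 livers.

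**Figure D1:**
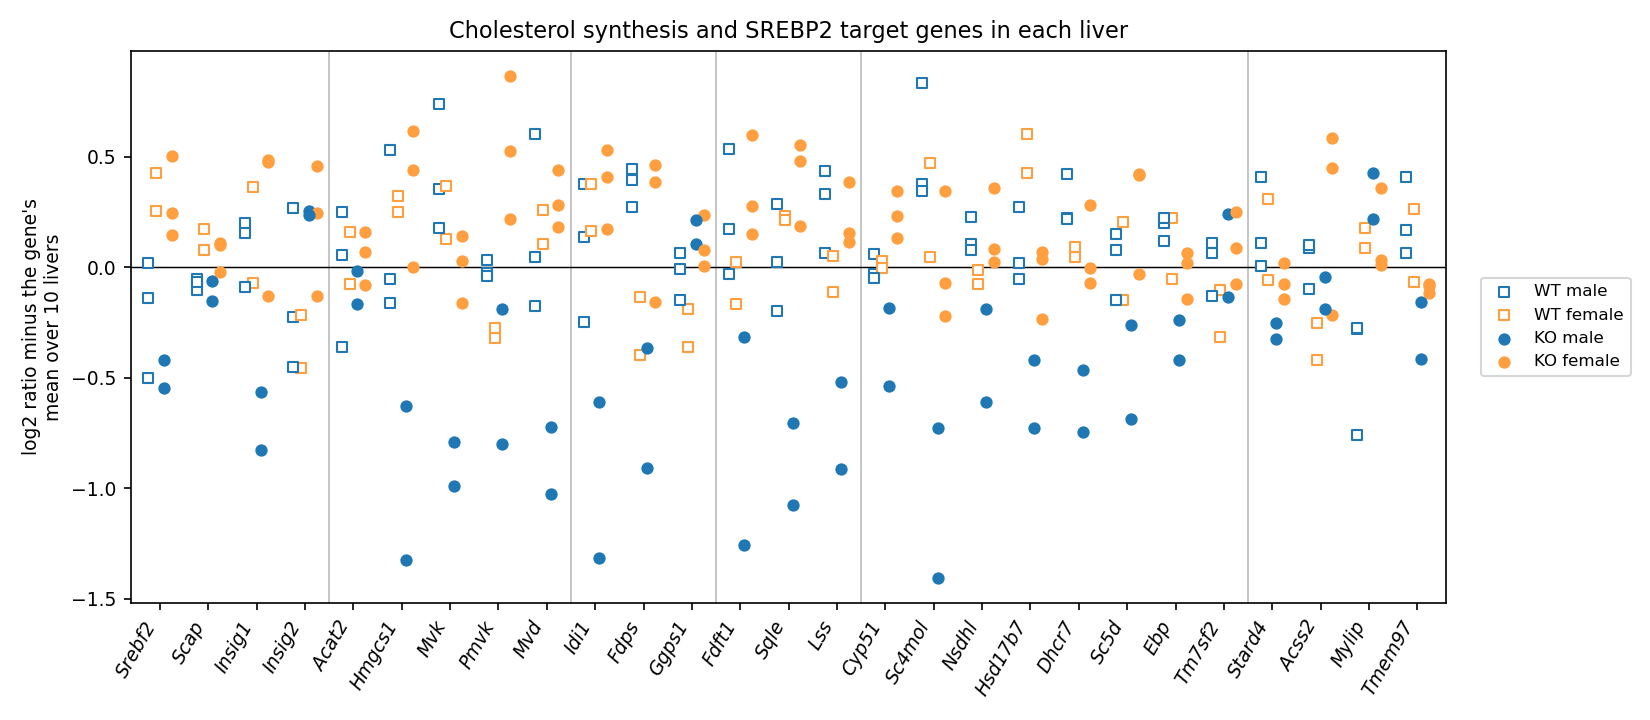
Log2 ratio of each of the 27 genes in each of the 10 livers, minus that gene's mean over the 10 livers (y axis), with genes along the x axis in order of role and vertical lines between roles. Open squares are WT and filled circles KO, blue male and orange female; the filled blue circles of the 2 KO males lie at the bottom for 17 genes, while Insig2, Ggps1 and Mylip have them above the mean.

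Among males (2 KO, 3 WT), 10 of 27 genes fell in KO, against 1.16% of all genes called lower, and 1 rose, Mylip, against 1.2% called higher. The median difference over the 27 was -0.51, against -0.02 over all genes, and 23 differences were below 0. Those that fell were Sc4mol, Mvk, Idi1, Mvd, Fdps, Lss, Sqle, Dhcr7, Hsd17b7 and Ebp, by 0.51 to 1.59 on the log2 scale, and span the route from mevalonate to the last sterol steps. For 19 genes both KO males lay below all 3 WT males, an order seen in 17.9% of 18854 genes.

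KO 5 weighed most in this result, and the arrays of the males were spread over slides. Without KO 5, only Mvk still passed in males (-1.22, adjusted p = 0.0381), and the median of the 27 was -0.42. Taken singly against the mean of the 3 WT males, KO 1 lay below for 22 genes (median -0.42) and KO 5 for 23 (median -0.75). On slide 1 alone, which held KO 1 beside WT 1 and WT 2, KO 1 was lower for 22 of 27 genes with a median of -0.38. With slide as a block the male differences were these same slide 1 values, since KO 5 shared no slide with a WT male. They rested on 1 KO liver, KO 1, at -1.34 for Mvk and -1.33 for Sc4mol. Over all alternatives the adjusted p in males ran from 0.00197 to 0.0705 for Mvk and from 0.00246 to 0.108 for Sc4mol. Without WT 1, WT 2 or KO 4, the number past the threshold was 6, 5 and 7 in place of 11. With median centring in place of loess it was 1, and with outlier spots removed after the background correction it was 0, at medians of -0.54 and -0.40.

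**Figure D2:**
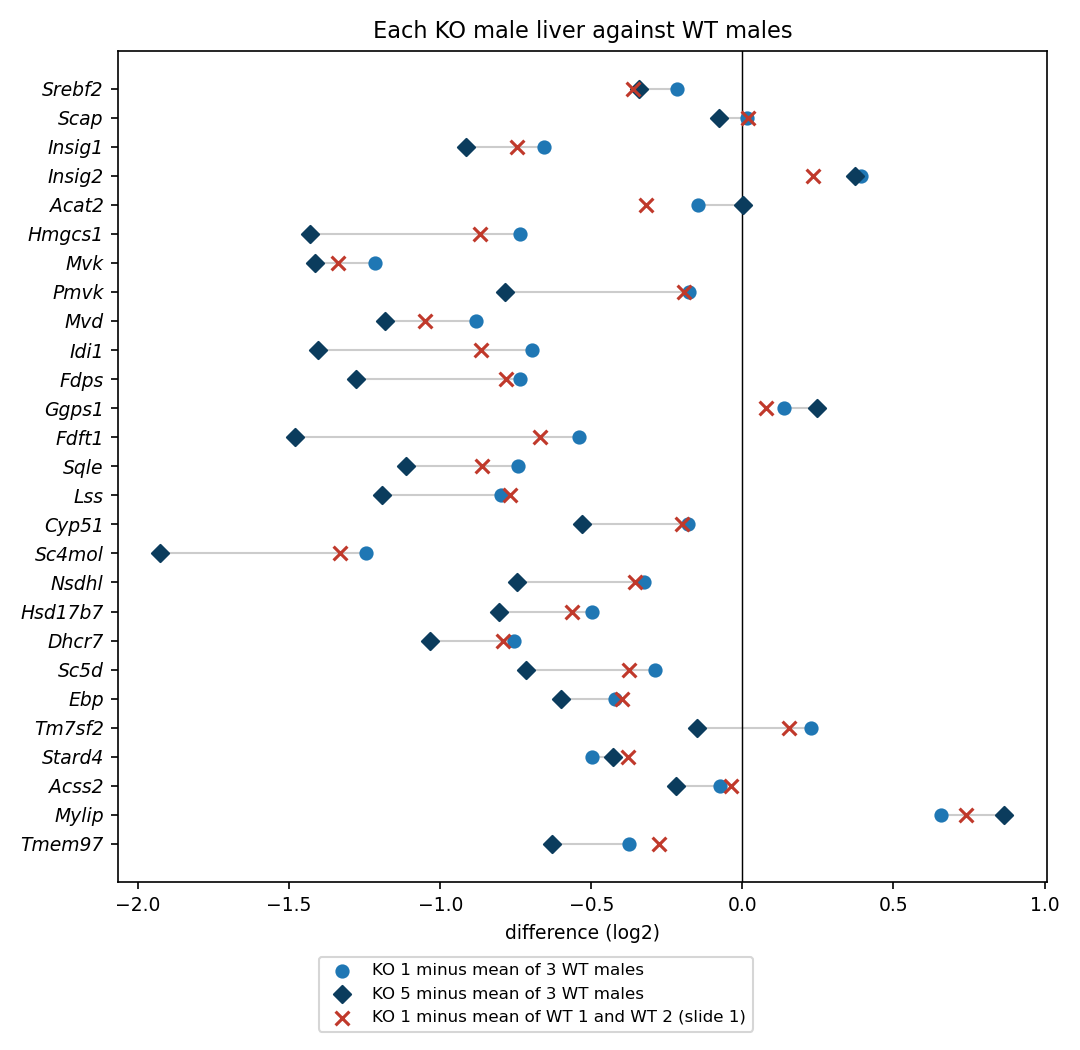
Difference (log2, x axis) of each male KO liver from the mean of the 3 WT males, for each of the 27 genes (y axis): blue circles KO 1, dark diamonds KO 5, and red crosses KO 1 against WT 1 and WT 2 of its own slide. Circles lie below 0 for 22 genes and diamonds for 23, and KO 5 is the lower of the pair for 23 genes.

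Some markers of other cell types also differed between the livers, including some adipocyte markers in both KO males and some neutrophil markers in KO 5. The sums below add the unlogged ratios of a list's markers, so the markers with the highest ratios lead them and they do not measure cell number. Of 5 adipocyte markers 3 were measured, and Adipoq and Lep did not pass the filter on dim probes. Their summed ratio was 39.9 in KO 1 and 30.5 in KO 5, against 13.5 to 16.5 in WT and a lowest KO value of 12.7. Cidec, a lipid droplet protein, rose in KO males (2.43, SE 0.229, adjusted p = 0.00053) and over both sexes (1.40, adjusted p = 0.0373), and Fabp4 rose in KO males (0.83, SE 0.143, adjusted p = 0.0167). The third marker, Plin1, did not pass in males (-0.22, SE 0.106, adjusted p = 0.324), and KO 5 was its lowest liver at -0.20. Of 4 neutrophil markers 3 were measured, with a summed ratio of 42.3 in KO 5, 8.72 in KO 1 and 6.22 to 11.3 in WT, and none of them passed in males. S100a9 (5.245) and S100a8 (0.47) were highest in KO 5, while Ltf (1.57 in KO 5) lay within its WT range of 0.31 to 1.89. The summed Kupffer cell markers (6 of 6 measured) were 439 in KO 5, against 297 in KO 1 and 258 to 371.5 in WT. Marco exceeded its WT range most, at 6.41 in KO 5 against 3.45 to 5.79, and Vsig4 alone of the 6 lay inside it. In KO 1 the neutrophil and Kupffer sums therefore lay inside the WT range. Those of endothelial cells (5 of 5) were 102 in KO 1, 125 in KO 5, 102 to 125 over all KO livers and 65.2 to 107.4 in WT, so they did not set the KO males apart. Among them Lyve1 rose over both sexes (1.47, SE 0.252, adjusted p = 0.00675), by 1.77 in males and with a female difference of 1.17 that did not pass. Of the bile duct markers Spp1 rose in KO males (1.46, SE 0.254, adjusted p = 0.0168), at -4.80 in KO 1 and -3.61 in KO 5 against -5.79 to -5.56 in WT. The part of these cells in the result was not tested.

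Among females (3 KO, 2 WT), none of the 27 genes fell in KO, against 2.16% called lower, and Pmvk alone rose, against 2.29% called higher. The median difference was 0.12, against 0.0047 over all genes, and 19 differences were above 0. Since no slide held WT and KO females together, slide and genotype in females could be separated only through the male livers on the same slides. With slide as a block the median from that liver was -0.25 and 22 of 27 differences lay below 0. Pmvk then stood at -0.10, and 7 of 20 alternatives kept its call. Hsd17b7 came closest to a fall in females (-0.56, SE 0.141, 95% interval -0.87 to -0.25, adjusted p = 0.0528), and it passed when either male KO liver was left out (adjusted p = 0.0497 without KO 1 and without KO 5).

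**Figure D3:**
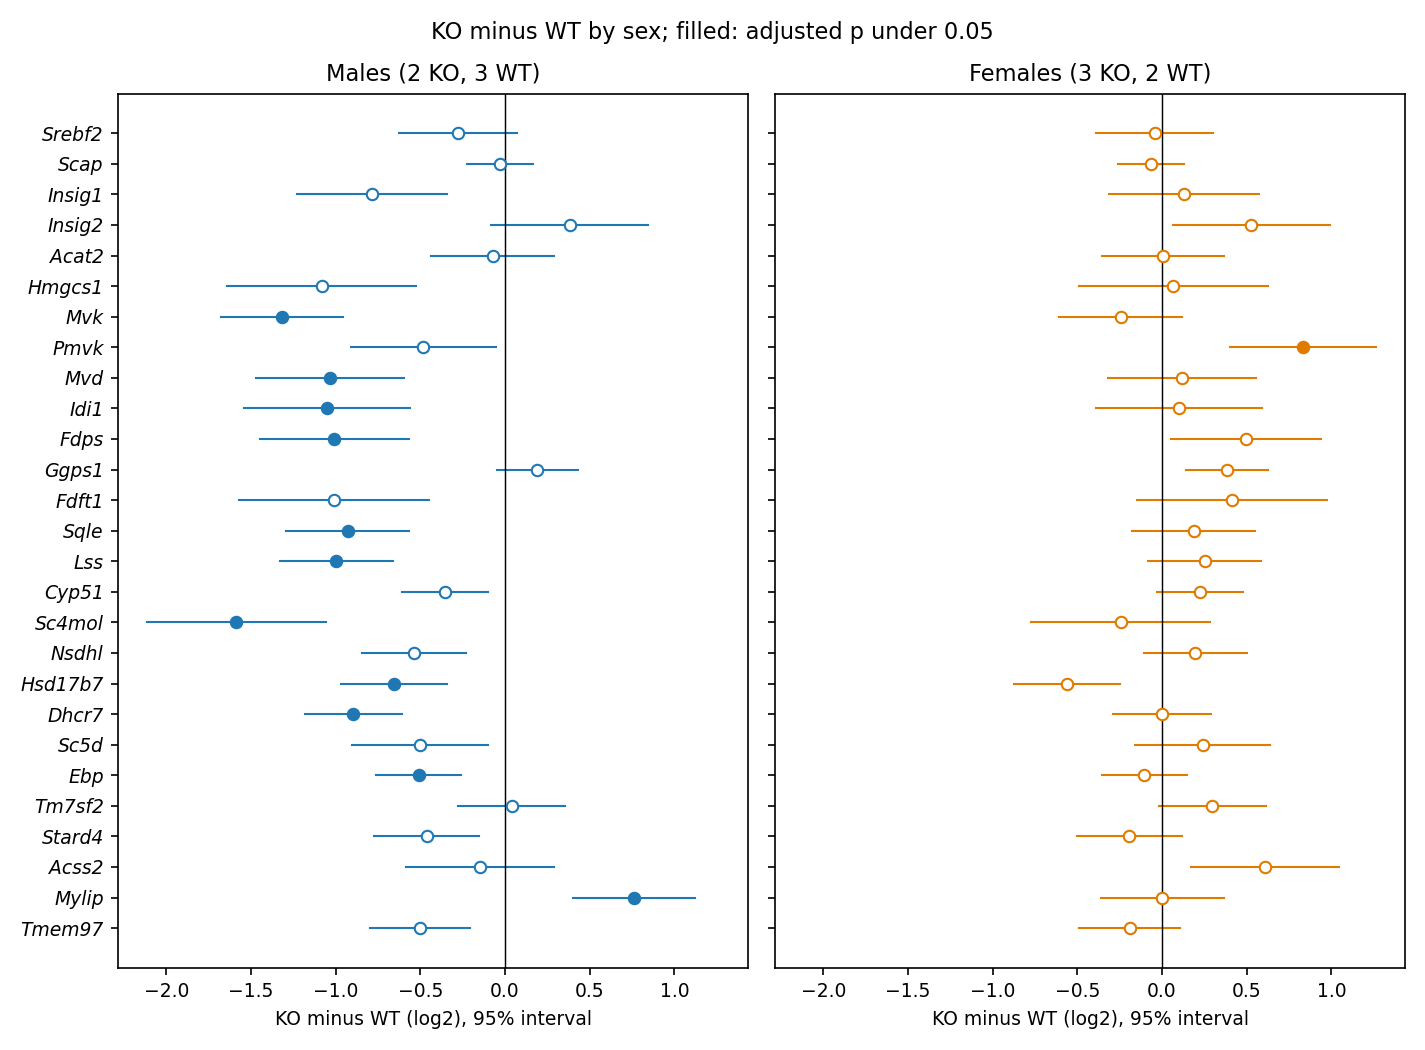
KO minus WT (log2, x axis) with 95% intervals for each of the 27 genes (y axis), in males on the left and females on the right; filled points have an adjusted p under 0.05. In males 10 filled points lie below 0 and 1, Mylip, above, and in females only Pmvk is filled, at 0.83.

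The difference between the sexes in the KO effect was tested directly. Of the 27 genes, 25 had a more positive KO effect in females than in males, with a median of 0.74 against 0.02 over all genes. None passed, against 0.0106% of all genes called higher and 0.0211% called lower, and limma's smallest adjusted p was 0.11, for Lss (1.25, SE 0.212). At an unadjusted p under 0.05 there were 18, of which 17 were higher, against 12.5% of all genes in either direction. The largest were Fdps (1.50, SE 0.282), Fdft1 (1.42, SE 0.358) and Sc4mol (1.34, SE 0.338). Without KO 1 there were 4 that passed, Pmvk, Fdps, Fdft1 and Lss (adjusted p from 0.0252 to 0.0307), and without KO 2 only Fdps (0.0379). With slide as a block the median was 0.25, an estimate in which KO 2 was the only KO female.

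Read within genotype, 16 of the 27 genes were higher in female than in male KO livers, against 2.67% of all genes called higher, and none was lower, against 3.85%. The median was 0.67, against 0.01 over all genes, and for 21 genes both KO males lay below all 3 KO females, an order seen in 21.4% of 18854 genes. In WT livers no gene differed between the sexes, against 4.9% called lower and 3.03% called higher in females. The median there was -0.09, and limma's smallest adjusted p was 0.0588, for Mylip. The 6 members with an unadjusted p under 0.05 were no larger a share than the 24.2% of all genes. WT females lay on slide 3 and WT males on slides 1 and 4, so sex and slide cannot be told apart in WT. With slide as a block, which links these slides only through KO 1 and KO 5, the WT differences ran from -0.41 (Ggps1) to 0.74 (Hmgcs1). Most of them then lay above 0, whereas without the block the median was -0.09. The comparison in KO used the same 2 male livers as the comparison of KO with WT males, so the calls of these comparisons are not independent. Without KO 5 only Sqle passed in KO (1.11, adjusted p = 0.0162), and without KO 4 there were 9. With slide as a block this comparison came down to KO 2 against KO 1 on slide 1, and KO 3, KO 4 and KO 5 dropped out. There KO 2 lay above KO 1 for all but 2 genes, with a median of 0.39, and by 0.92 for Srebf2 and 1.19 for Sqle. With median centring 5 passed, and with outlier spots removed after the background correction 2.

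Over both sexes, with sex in the model, 2 of the 27 genes fell in KO, Mvk and Hsd17b7, against 3.08% called lower, and none rose, against 2.89%. The median was -0.30, against -0.0028 over all genes. Only Tmem97, the sigma-2 receptor and an SREBP target, had all 5 KO livers below all 5 WT livers, against 3.08% of 18854 genes, and it did not pass (-0.35, SE 0.103, adjusted p = 0.075). With slide as a fixed block 15 passed, 14 lower and Mylip higher, against 6.37% of all genes. With slide as a random block 7 passed, against 8.3%. Without any sex term none passed. Without WT 4 there were 6, with Sc4mol, Ebp, Stard4 and Tmem97 added, against 5.4% of all genes. Without any 1 of WT 1, WT 3, WT 5, KO 1, KO 4 or KO 5 only 1 passed. Hsd17b7 was the one without KO 5 (-0.54, adjusted p = 0.0136), where the median of the 27 was -0.11.

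The regulators moved unequally. Srebf2, the gene of SREBP2 itself, was at -1.46, -1.30 and -1.82 in WT males, -1.07 and -0.90 in WT females, -1.75 and -1.87 in KO males, and -0.82, -1.08 and -1.18 in KO females. Males of both genotypes were thus low and overlapped, and every female lay above every male. Srebf2 was higher in female than male KO livers (0.78, SE 0.157, adjusted p = 0.014) and did not differ detectably between KO and WT males (-0.28, 95% interval -0.63 to 0.07). In WT the sex difference was 0.55 (SE 0.157, adjusted p = 0.059). Of its 4 probes, 3 passed for sex in KO (range over the 4 from 0.06 to 0.78), and 1 passed in males (-0.50).

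Scap, the escort of SREBP2, varied little. Its ratios were 1.61, 1.66 and 1.65 in WT males, 1.79 and 1.89 in WT females, 1.65 and 1.56 in KO males, and 1.69, 1.82 and 1.82 in KO females. KO minus WT was -0.05 (95% interval -0.18 to 0.09), and no comparison passed.

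The INSIG genes, whose products hold SCAP back, went different ways. Insig1, itself an SREBP target, was at 3.32, 3.27 and 3.03 in WT males, 3.05 and 3.48 in WT females, 2.55 and 2.29 in KO males, and 2.99, 3.59 and 3.60 in KO females. Only the KO males stood below the other groups, by 0.97 against KO females (SE 0.2, adjusted p = 0.016) and by 0.79 against WT males, which did not pass (adjusted p = 0.0724). Insig2 was at 2.24, 2.73 and 2.01 in WT males, 2.24 and 2.01 in WT females, 2.72 and 2.70 in KO males, and 2.92, 2.33 and 2.70 in KO females. KO livers of both sexes lay mostly above WT, with WT 2 among them, and KO minus WT was 0.45 (SE 0.144, 95% interval 0.14 to 0.77, adjusted p = 0.093). The second Insig2 probe gave 0.21.

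The first enzyme of the list, Acat2, the cytosolic thiolase that joins acetyl-CoA units, ranged from 3.17 to 3.78 over the 10 livers with the groups overlapping (KO minus WT -0.03, 95% interval -0.28 to 0.21). Hmgcs1, which makes HMG-CoA, was at 2.87, 3.46 and 2.77 in WT males, 3.25 and 3.18 in WT females, 2.30 and 1.60 in KO males, and 3.37, 2.93 and 3.54 in KO females. The KO males were the 2 lowest. Hmgcs1 was higher in KO females than KO males (1.33, SE 0.252, adjusted p = 0.0104), at all 3 of its probes, and was just short of the threshold in males (-1.08, SE 0.252, adjusted p = 0.0526). Its probes differed in sign for KO minus WT, from -0.51 to 0.27.

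Mvk, mevalonate kinase, fell in males and over both sexes. Its ratios were 1.07, 1.45 and 0.89 in WT males, 1.08 and 0.84 in WT females, -0.08 and -0.28 in KO males, and 0.86, 0.74 and 0.56 in KO females. The KO males lay far below the other 8 livers, and 2 of 3 KO females lay below all WT livers. The difference was -1.32 in males (SE 0.163, a 2.49-fold fall, adjusted p = 0.00297), -0.24 in females (95% interval -0.61 to 0.12) and -0.78 over both (SE 0.194, adjusted p = 0.0386). Both of its probes passed in males and over both sexes. Over both sexes the adjusted p ran from 0.00822 to 0.307 across the alternatives, and 9 of 21 kept the call.

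Pmvk, which adds the second phosphate to mevalonate, was at 1.49, 1.55 and 1.47 in WT males, 1.20 and 1.24 in WT females, 1.33 and 0.72 in KO males, and 1.73, 2.04 and 2.38 in KO females. The 3 KO females lay above and the 2 WT females below all WT males, and KO 5 was lowest of all. The female KO effect was 0.83 (SE 0.194, adjusted p = 0.0399), against -0.10 with slide as a block and KO 2 as the only KO female. The difference between KO females and KO males was 1.03 (SE 0.194, adjusted p = 0.0103).

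Mvd, the decarboxylase that yields isopentenyl pyrophosphate, was at 0.46, 1.01 and 0.23 in WT males, 0.52 and 0.67 in WT females, -0.31 and -0.62 in KO males, and 0.69, 0.59 and 0.85 in KO females. No other liver overlapped the KO males. It fell in males (-1.03, SE 0.197, adjusted p = 0.025) and was higher in KO females than KO males (1.18, SE 0.197, adjusted p = 0.00542).

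Of the 3 isoprenoid genes, 2 fell in males, against 1.16% of all genes. Idi1, the isomerase of isopentenyl pyrophosphate, was at 3.04, 3.28 and 2.66 in WT males, 3.28 and 3.07 in WT females, 2.30 and 1.59 in KO males, and 3.31, 3.08 and 3.43 in KO females. Fdps, which makes farnesyl pyrophosphate, was at 2.40, 2.45 and 2.28 in WT males, 1.61 and 1.87 in WT females, 1.64 and 1.10 in KO males, and 1.85, 2.39 and 2.47 in KO females. For Idi1 the KO males were the 2 lowest livers, whereas for Fdps WT 3 lay among them. Both fell in males, Idi1 by 1.05 (SE 0.221, adjusted p = 0.0379) and Fdps by 1.01 (SE 0.2, adjusted p = 0.0291), and both were higher in KO females than KO males, by 1.33 (adjusted p = 0.00517) and 0.87 (adjusted p = 0.0277). The second probe of each did not pass in males, at -0.99 for Idi1 and -0.87 for Fdps (limma adjusted p = 0.123 and 0.205). For KO minus WT the Fdps probes differed in sign, at -0.255 and 0.197. The male call held in 6 of 20 alternatives for Idi1 and in 13 of 20 for Fdps. Ggps1, which makes geranylgeranyl pyrophosphate for protein prenylation and not for sterols, ran from -0.83 to -0.41 in WT and from -0.47 to -0.23 in KO. It did not pass (0.29, SE 0.08, adjusted p = 0.0594), and its male KO livers were not the lowest. The Idi1 probes sit on chromosome 2 in the array files' mm7 coordinates, while RefSeq places the gene on chromosome 13.

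The 3 genes from squalene to lanosterol all had the KO males as the 2 lowest livers, against 4.58% of 18854 genes. Fdft1, squalene synthase, was at 2.40, 2.76 and 2.19 in WT males, 2.25 and 2.06 in WT females, 1.91 and 0.97 in KO males, and 2.38, 2.50 and 2.83 in KO females. Its fall in males did not pass (-1.01, SE 0.253, adjusted p = 0.0687), with KO 5 0.94 below KO 1, while KO females were higher than KO males (1.13, SE 0.253, adjusted p = 0.0245). Sqle, squalene epoxidase, an oxygen-using step that limits the later route, was at 0.44, 0.70 and 0.22 in WT males, 0.64 and 0.63 in WT females, -0.29 and -0.66 in KO males, and 0.90, 0.60 and 0.97 in KO females. Sqle fell in males (-0.93, SE 0.164, adjusted p = 0.0179). Its difference between KO females and KO males, 1.30 (SE 0.164, 2.46-fold, adjusted p = 0.000903), had the smallest adjusted p of the 27 genes and kept its call in 19 of 20 alternatives. Lss, lanosterol synthase, was at 1.34, 1.70 and 1.60 in WT males, 1.16 and 1.32 in WT females, 0.75 and 0.36 in KO males, and 1.38, 1.43 and 1.66 in KO females. It fell in males (-0.995, SE 0.15, adjusted p = 0.00818), at all 3 of its probes.

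Of the 8 enzymes after lanosterol, 4 fell in males and 5 were higher in KO females than KO males, against 1.16% and 2.67% of all genes. Sc4mol, now named Msmo1, the oxidase that starts removal of the methyl groups at carbon 4, had the largest male difference. It was at 1.99, 2.44 and 1.95 in WT males, 2.08 and 1.66 in WT females, 0.88 and 0.20 in KO males, and 1.95, 1.39 and 1.54 in KO females. The KO males stood apart from all other livers, and 2 KO females also lay below all WT livers. The male difference was -1.59 (SE 0.239, a 3-fold fall, adjusted p = 0.00818), and 18 of 20 alternatives kept the call. Over both sexes it was -0.91 (SE 0.258, adjusted p = 0.0616).

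Hsd17b7, a 3-ketosteroid reductase of the same demethylation sequence, was at 2.27, 2.52 and 2.20 in WT males, 2.85 and 2.68 in WT females, 1.83 and 1.52 in KO males, and 2.28, 2.01 and 2.32 in KO females. At this probe no KO liver reached, within its sex, the lowest WT liver. It fell by 0.61 over both sexes (SE 0.0979, 1.52-fold, adjusted p = 0.00495) and by 0.65 in males (SE 0.141, adjusted p = 0.0417), and the 2 effects by sex differed by 0.09 (95% interval -0.35 to 0.54). Its second probe passed in none of these comparisons, at -0.33 over both sexes, -0.63 in males and -0.04 in females, so the lower level in KO females was seen at 1 probe only. The call over both sexes held in 17 of 21 alternatives, with adjusted p from 0.00159 to 0.259. The probe lies at chr1:169928936-169928995 in mm7.

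Dhcr7, the last reductase of one branch of the route, was at 2.78, 2.98 and 2.77 in WT males, 2.60 and 2.64 in WT females, 2.09 and 1.81 in KO males, and 2.48, 2.55 and 2.83 in KO females. Ebp, a sterol isomerase, was at 3.75, 3.83 and 3.86 in WT males, 3.86 and 3.58 in WT females, 3.39 and 3.21 in KO males, and 3.49, 3.65 and 3.70 in KO females. In both genes the KO males were the 2 lowest livers, and the range of the KO females overlapped those of the WT livers. Dhcr7 fell in males (-0.89, SE 0.13, adjusted p = 0.00732) at both of its probes and was higher in KO females than KO males (0.67, SE 0.13, adjusted p = 0.0115). Ebp fell in males by 0.51 (SE 0.113, adjusted p = 0.0445), a call that 5 of 20 alternatives kept.

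Cyp51, the lanosterol demethylase, was at 1.83, 1.92 and 1.81 in WT males, 1.89 and 1.86 in WT females, 1.67 and 1.32 in KO males, and 2.09, 1.99 and 2.21 in KO females. Its 5 WT livers were close together, the KO females above them and the KO males below. KO females exceeded KO males by 0.60 (SE 0.116, adjusted p = 0.0115), at all 3 of its probes, and KO minus WT over both sexes was -0.07 (95% interval -0.32 to 0.19). Nsdhl, a sterol dehydrogenase, was at 2.04, 2.16 and 2.02 in WT males, 1.92 and 1.86 in WT females, 1.75 and 1.33 in KO males, and 2.02, 1.96 and 2.29 in KO females. Sc5d, the sterol desaturase, was at 5.15, 5.07 and 4.85 in WT males, 4.85 and 5.20 in WT females, 4.73 and 4.31 in KO males, and 4.97, 5.42 and 5.41 in KO females. Both had the KO males as the 2 lowest livers, and both passed only between KO females and KO males, Nsdhl at 0.55 (SE 0.139, adjusted p = 0.04) and Sc5d at 0.74 (SE 0.18, adjusted p = 0.0347). Tm7sf2, a sterol reductase, did not share it: it ran from 4.66 to 5.09 in WT and 4.84 to 5.23 in KO, and KO 1 was among its highest livers (5.22).

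Among the genes outside the synthetic route, Mylip ran opposite. Its product IDOL tags lipoprotein receptors for degradation and is induced by the sterol sensor LXR. It was at 0.47, -0.01 and 0.48 in WT males, 0.93 and 0.84 in WT females, 0.97 and 1.18 in KO males, and 1.11, 0.78 and 0.76 in KO females. The WT males were the 3 lowest livers and the other groups overlapped. Mylip rose in males (0.76, SE 0.163, adjusted p = 0.0407), a call that 7 of 20 alternatives kept, and stood at 0.00 in females (95% interval -0.36 to 0.36).

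The remaining genes passed in no comparison. Stard4, a sterol carrier, was at 1.81 to 2.28 in WT and 1.54 to 1.89 in KO, with KO 1 and KO 5 lowest (-0.33, SE 0.104, adjusted p = 0.0924). Its 2 other probes gave differences above 0, of 0.11 and 0.20. Tmem97 was at 1.07 to 1.54 in WT and 0.72 to 1.06 in KO. Acss2, which makes acetyl-CoA from acetate, was at 3.34 to 3.86 in WT and 3.55 to 4.35 in KO, highest in KO 3 and KO 4 of slide 2. In all, 8 of the 27 genes passed nowhere: Scap, Acat2, Tm7sf2, Insig2, Ggps1, Stard4, Acss2 and Tmem97.

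Most of the enzymes varied together from liver to liver. Across the 10 livers the correlation of a gene with the mean of the other 26 was above 0.8 for 12 genes, highest for Idi1 (r = 0.971), Mvd (0.964), Sqle (0.96) and Hmgcs1 (0.959). It was below 0 for Insig2 (-0.156), Ggps1 (-0.294) and Mylip (-0.557). The correlation of each gene with the members' mean had a median of 0.0238 over all genes. The median correlation between pairs of members, a different measure, was 0.485, and 0.336 after the mean of each genotype and sex was taken out. These are descriptions: the 10 points share arrays, slides and the 2 low KO males. Srebf2 itself stood at 0.661 with the other members, and at 0.834 with Sqle.

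Other genes of the pathway, taken by list, mostly did not move with the enzymes. Over all genes, 2.89% were called higher and 3.08% lower for KO minus WT. Of 10 genes of SREBP processing and sterol sensing, 1 rose in KO and none fell: Mbtps1, the S1P protease (0.35, SE 0.0737, adjusted p = 0.0185), with ratios of -1.09 to -0.79 in WT and -0.67 to -0.55 in KO that did not overlap. Their male median was 0.04. Of 11 genes of the isoprenoid branches 1 fell, Pdss1, which makes the side chain of coenzyme Q (-0.32, SE 0.0697, adjusted p = 0.0214). Of 4 redox partners of the sterol oxidases, 8 genes of LXR and sterol export and 13 of sterol storage and transport, none passed for KO minus WT, with medians of 0.04, -0.02 and 0.13. That count includes Cyp7a1, the first enzyme of bile acid synthesis, which varied widely (2.52 to 5.88) and was at -0.81 (SE 0.462).

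The fatty acid synthesis genes, the main targets of the sister factor SREBP1, followed another order of livers in their mean, and shared part of the pattern. Of 15, 3 rose in KO and 1 fell, against 2.89% and 3.08% of all genes. Me1, the malic enzyme that supplies NADPH, rose by 1.17 (SE 0.165, adjusted p = 0.00221), the desaturase Scd1 by 1.24 (SE 0.191, adjusted p = 0.00376) and the carboxylase Acacb by 0.72 (SE 0.188, adjusted p = 0.0476), while the desaturase Fads2 fell (-0.73, SE 0.127, adjusted p = 0.00709). In females 6 rose and none fell, against 2.29% and 2.16% of all genes. In males 1 rose and 1 fell, against 1.2% and 1.16%. In KO females 5 were higher than in KO males and none lower, against 2.67% and 3.85% of all genes. The median of that difference was 0.64, in the direction of the cholesterol genes. For Fads1 and Fads2 the KO males were the 2 lowest livers. Their mean deviation was 0.77 in KO 3 and 0.88 in KO 4, both of slide 2, -0.02 in KO 2 and -0.41 to -0.07 in WT. The male KO livers were at -0.10 and -0.17, inside the range of WT, where the cholesterol genes were lowest.

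**Figure D4:**
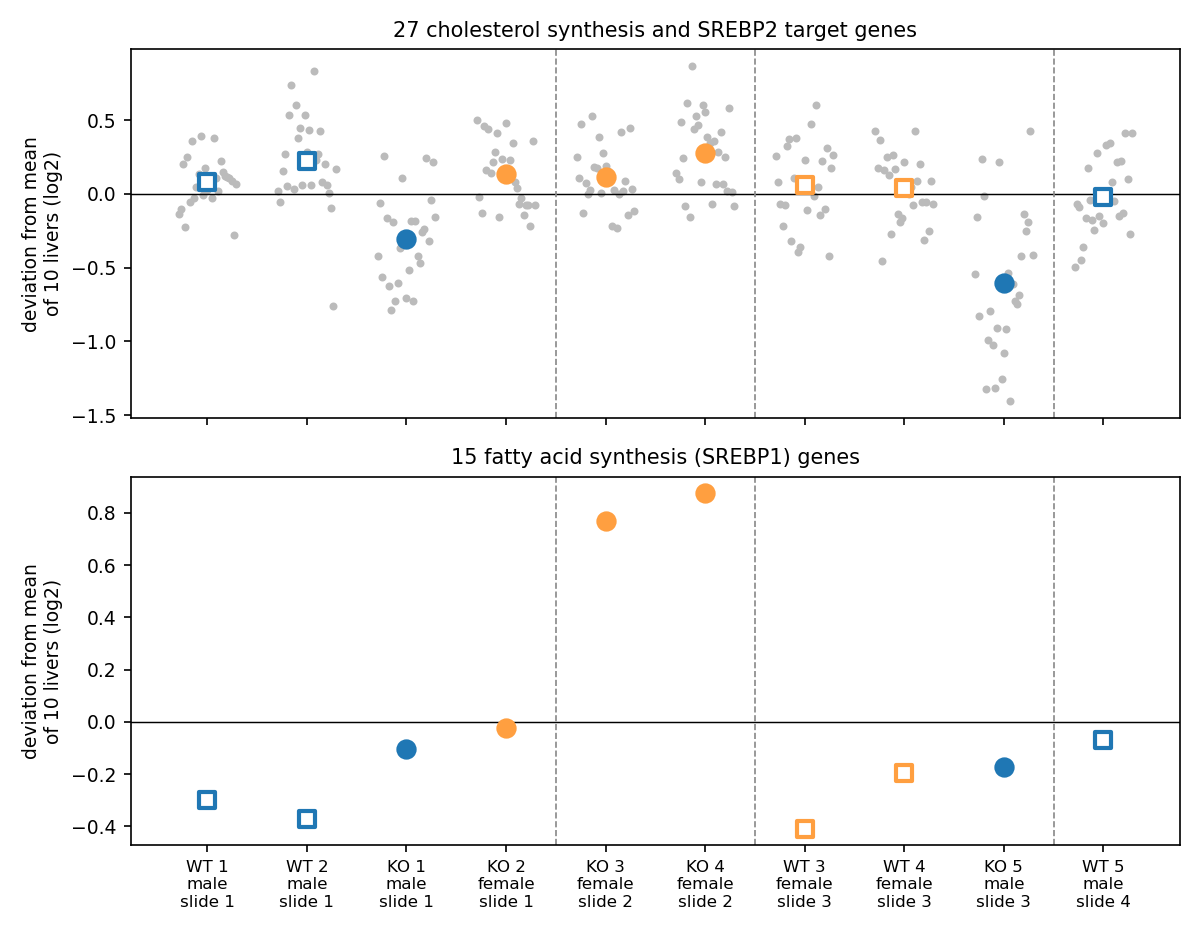
Deviation from the mean of the 10 livers (log2, y axes) for the livers along the x axis, ordered by slide with dashed lines between slides; squares WT, circles KO, blue male, orange female, and grey dots in the upper panel the single genes. The mean of the 27 cholesterol genes is lowest in KO 1 (-0.31) and KO 5 (-0.61), and the mean of the 15 fatty acid synthesis genes is highest in KO 3 (0.77) and KO 4 (0.88).

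Clock genes also separated KO females from KO males. Of 14 clock genes, Nr1d1 alone passed for KO minus WT (-0.47, SE 0.122, adjusted p = 0.0441), against 3.08% of all genes called lower. In KO females 3 were higher than in KO males and 2 lower, against 2.67% and 3.85% of all genes. Against WT females, on other slides, Dbp fell (-1.53, SE 0.343, adjusted p = 0.0348) and Cry1 rose (0.63, SE 0.128, adjusted p = 0.0239) in KO females. No clock gene passed between KO and WT males. Arntl was higher by 1.57 (SE 0.337, adjusted p = 0.0198), with ratios of 0.78 in KO 1 and -0.43 in KO 5, 1.58 to 1.83 in KO females and 0.56 to 1.60 in WT. Dbp was lower by 1.62 (SE 0.343, adjusted p = 0.0182), with -0.54 in KO 1, -0.01 in KO 5 and -1.995, -1.745 and -1.95 in KO females. Its WT range of -1.38 to 0.10 held both KO males and no KO female. The sexes of the WT livers, which lay on different slides, gave no clock gene past the threshold. The hour of collection is not known here, and the part of the clock in the cholesterol genes' pattern was not tested.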

How the data were processed

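Liver RNA of 10 mice, each mouse 1 replicate, was hybridised in Cy5 against a universal mouse reference in Cy3 on Agilent arrays of design 014868, with no dye swap. Per the submitters' processing notes and the file headers, spots were extracted with Agilent Feature Extraction 10.7 (10.7.3.1). Per the file headers, the deposited files give each spot's mean and local background as linear intensity. They also hold the scanner's deposited log10 ratio, processed red (Cy5) to green (Cy3). A table of values deposited by the authors is in log2, liver to reference: its columns correlated with the ratios used here at 0.9994 to 0.9996, with medians of 0.00776 to 0.023, and its normalisation is not stated in the labels or headers. The number of arrays limits the precision.

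Between 169 and 291 outlier spots marked by the scanner were dropped on each array, a step placed before the background correction after values had been seen. Signals were corrected with normexp (offset 50) and normalised array by array with loess (span 0.3; control spots had weight 0). A probe was kept if its Cy5 signal was well above background on 4 or more of 10 arrays (26933 of 41174 probes), and each gene took its brightest probe (18921 genes, 67 with a missing value in some liver; limma fitted those on the livers left). limma 3.58.1 in R 4.3.3 (lmFit, eBayes) used genotype and sex, and a second model added their interaction for the 5 comparisons by sex, with Benjamini-Hochberg adjustment over all genes and a threshold of 0.05. Per-probe results were adjusted over all probes kept. The fits were tested on simulated data. The members' 58 probes (53 kept; 17 members with several) were joined by gene name, and none of the probes used was saturated.

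The members and lists were chosen with earlier results of these data known. Values are given in every liver for members that passed anywhere and for the 4 regulators, and from the lists only genes passing for KO minus WT are named by rule; genes named for a cell type marker or clock result in 1 sex, and Cyp7a1, were chosen after their values were seen. Slides were read from the array identifiers. Replicate numbers were not used to pair livers: correlations of same-numbered livers ran from -0.306 to 0.25. Alternatives were the slide and the replicate number as blocks, no sex term, other normalisations and filters, the mean of a gene's probes, and each liver left out.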

Additional observations from a re-analysis of the deposited data

Results flagged for a closer look

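Of 54 groups of 5 livers examined, 1 held a liver far from the others, and chance gives about 1 in 20. Tmem97 in the KO group stood at 0.718 in KO 5 against 0.973 to 1.06 in the other 4 KO livers, a gap of 0.751 of the group's range.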

How the results depend on the processing

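The number of the 27 genes past the threshold depended on the processing, while the male median stayed between -0.60 and -0.38 in the alternatives that kept all livers. The -0.38 came with slide as a fixed block, where KO 1 alone stood for the KO males. In comparisons by sex that block also left KO 2 as the only KO female, so its counts by sex are not given. For KO minus WT the count was 15 with slide as a fixed block, 7 with slide as a random block, 1 with the replicate block, 0 without a sex term, 0 with median centring, 0 with outlier spots removed after normexp, 4 from Cy5 alone and 1 with the mean of a gene's probes, against 2 as reported. In males it was 5 with the replicate block, 1 with median centring, 0 with outlier spots removed after normexp and 7 from the scanner's log ratio, against 11. In females it was 2 with the replicate block and 0 with slide as a random block, median centring, outlier spots removed after normexp, the scanner's log ratio or the mean of probes, against 1. Between the sexes in KO it was 0 with the replicate block, 5 with median centring and 2 with outlier spots removed after normexp, against 16. Between the sexes in WT it was 1 with the replicate block, 2 from Cy5 alone and 1 from the scanner's log ratio, against 0. Leaving out 1 liver gave 1 to 6 for KO minus WT, 1 to 12 in males, 0 to 2 in females, 0 to 4 for the difference between the sexes, 1 to 17 between the sexes in KO and 0 to 1 in WT. Where that leaves 1 liver in a group, it is assumed to vary like the others. Of 30 calls of single genes followed, 1 reversed: Pmvk in females, at -0.10 with slide as a fixed block. Over all genes, KO minus WT called 1129 as reported, 620 without a sex term, 281 with median centring (72.2% of them higher, against 48.4%), 339 with outlier spots removed after normexp and 305 with the replicate block. With slide as a fixed block it called 1205, and with slide as a random block 1570. The cause was not tested in any of these, and no replicate number correlated best with its own pair.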
